A study of Rattus norvegicus with 12 samples.

Results

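Voltage-gated calcium and sodium channels are assembled from pore-forming and accessory subunits, and the genes that encode these subunits were described here in rat pancreatic islets, the hormone-secreting cell clusters of the pancreas. The members were the gene symbols of the deposited count table that carry a calcium channel name (Cacna1, Cacna2d, Cacnb and Cacng series) or a sodium channel name (Scn series ending in a or b), with the transcript of highest mean count taken for each symbol. The members reported numbered 37 of 25888 symbols, 26 for calcium channels and 11 for sodium channels. All RNA came from Sprague Dawley rats with free access to standard chow and water. Intrauterine growth restriction (IUGR) was produced by tying off both uterine arteries of the dam on embryonic day 18, which lowers the blood supply to the fetuses, and control litters were culled to 8 pups. The 4 groups were IUGR rats at 10 weeks of age, control rats at 10 weeks, IUGR rats at 2 weeks and control rats at 2 weeks, each with 3 biological replicates, 12 libraries in all. The number of animals per library, their sex and whether control dams had sham surgery are not stated in the labels. Islets were freed by collagenase digestion and a density gradient, and libraries were made from total RNA with a strand-marking kit after ribosomal RNA removal, from RNA with an integrity number above 7.

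In a beta cell, glucose metabolism closes ATP-sensitive potassium channels, the membrane depolarises, and calcium entering through voltage-gated channels triggers the release of insulin granules. The alpha1 subunit forms the calcium pore and sets the channel class. L-type channels carry most of the calcium current of beta cells, P/Q-, N- and R-type channels are best known from nerve terminals, and T-type channels open at lower voltages. The beta and alpha2delta subunits bring the pore to the membrane and tune its gating, and several gamma subunits instead escort AMPA-type glutamate receptors. Sodium channel alpha subunits carry the fast upstroke of the action potential, and their beta subunits adjust gating and act as adhesion molecules.

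The libraries held 30396759 to 64201627 counts. Genes of acinar cells, the enzyme-secreting cells of the surrounding pancreas, took 0.625% to 2.33% of counts in 10-week IUGR libraries, against 13.97% to 47.5% in 10-week control libraries, and 4.38% to 9.38% in 2-week IUGR libraries, against 21.7% to 42.4% in 2-week control libraries. The acinar share was above 40% in 10-week control replicates 1 and 3 and in 2-week control replicate 1. At 10 weeks, 32 of 33 tested acinar genes were lower in IUGR than in control islets, as were 10 of 12 fibroblast, 10 of 13 endothelial and 8 of 13 Schwann cell genes, while 12 of 22 genes shared by all endocrine cells and 4 of 9 beta cell genes were higher. The summed level of the endocrine genes was 13319 to 14646 scaled CPM (CPM, that is counts over the library total, after trimmed-mean scaling between libraries) in IUGR islets at 10 weeks, against 7275 to 10138 in control islets. Of 17 tested neuron genes, 1 was higher and 7 lower in IUGR islets at 10 weeks, with a median log2 fold change of -0.19. The summed level of all 19 neuron genes found was 198.6 to 233 scaled CPM in IUGR islets at 10 weeks, against 176 to 213 in control islets. None of the marker genes found was at 0 in every library of a group. In bulk RNA, fewer cells of a type and less RNA per cell cannot be told apart, and the part of cell makeup in the results below was not tested.

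Of the 37 members, 28 passed the filter on low counts and were tested. The 9 others never exceeded 21 counts in a library and received no test. They were the skeletal muscle L-type pore gene Cacna1s, the T-type pore gene Cacna1i, the sensory neuron sodium channel gene Scn11a and the gamma subunit genes Cacng1, Cacng2, Cacng3, Cacng5, Cacng7 and Cacng8. Averaged over the 12 libraries, 17 members reached 2 scaled CPM. Counts were not divided by transcript length, so levels are compared between groups for each gene and not between genes. The L-type genes Cacna1c and Cacna1d, by which the channel set is recognised in islets, had 610 to 2321 and 837 to 2174 counts across the libraries. The 37 members together summed to 671 to 740.0 scaled CPM in IUGR islets at 10 weeks, against 465 to 565 in control islets, and to 492 to 559 in IUGR islets at 2 weeks, against 333 to 535 in control islets. These sums depend on the trimmed-mean scaling, rest mostly on the members with many counts, and were not tested. The summed endocrine genes given above were also higher in IUGR islets at 10 weeks. Groups were compared with edgeR's quasi-likelihood test, fitted to all 20733 transcripts that passed the filter, and a member was called at a Benjamini-Hochberg adjusted p under 0.05.

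At 10 weeks, 6 of the 28 tested members (21.4%) differed between IUGR and control islets, below the 27.9% of all tested transcripts that did. The 6 members higher in IUGR islets were the L-type pore gene Cacna1d, the accessory genes Cacnb2 and Cacna2d1, the sodium pore gene Scn3a and the sodium beta subunit genes Scn3b and Scn2b. Of the 28, 0 passed as lower, 10 had an unadjusted p under 0.05 in either direction, and DESeq2 called 1 lower. Among all transcripts, 12.4% were higher and 15.5% lower. The median log2 fold change was 0.21 over the tested members and -0.01 over all transcripts. The groups did not overlap for 7 members that lay higher in IUGR islets, the 6 called members and Scn1a, and for 1 that lay lower, Cacna2d2, where 21.3% and 18.9% of all transcripts did not overlap in these directions. All 6 higher calls were lost, and their fold changes ran from -0.38 (Cacna1d) to -9.9e-04 (Scn3b), when the libraries were scaled to the 22 pan-endocrine genes, a scaling that shifted the median of all transcripts by -0.77. Under it 9 members passed as lower, while of all 20733 transcripts 12316 were called, 21 of them higher. With the acinar level as a model term, 28 of all 20733 transcripts were called higher, and 0 members were. Without both 10-week control libraries above 40% acinar counts 0 were called higher as well, while the 6 fold changes stayed at 0.38 to 0.75, against 0.38 to 0.76 with all libraries. That setting leaves 1 control library at 10 weeks, which the fit assumes to vary like the other groups. No higher call was left without 10-week control replicate 3, 1 without 10-week IUGR replicate 1, 2 without 10-week IUGR replicate 3 and 3 without 10-week control replicate 2. The lower count was 3 without 10-week control replicate 1 and 1 without 10-week IUGR replicate 1 or 2-week control replicate 1 or 3.

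**Figure D1:**
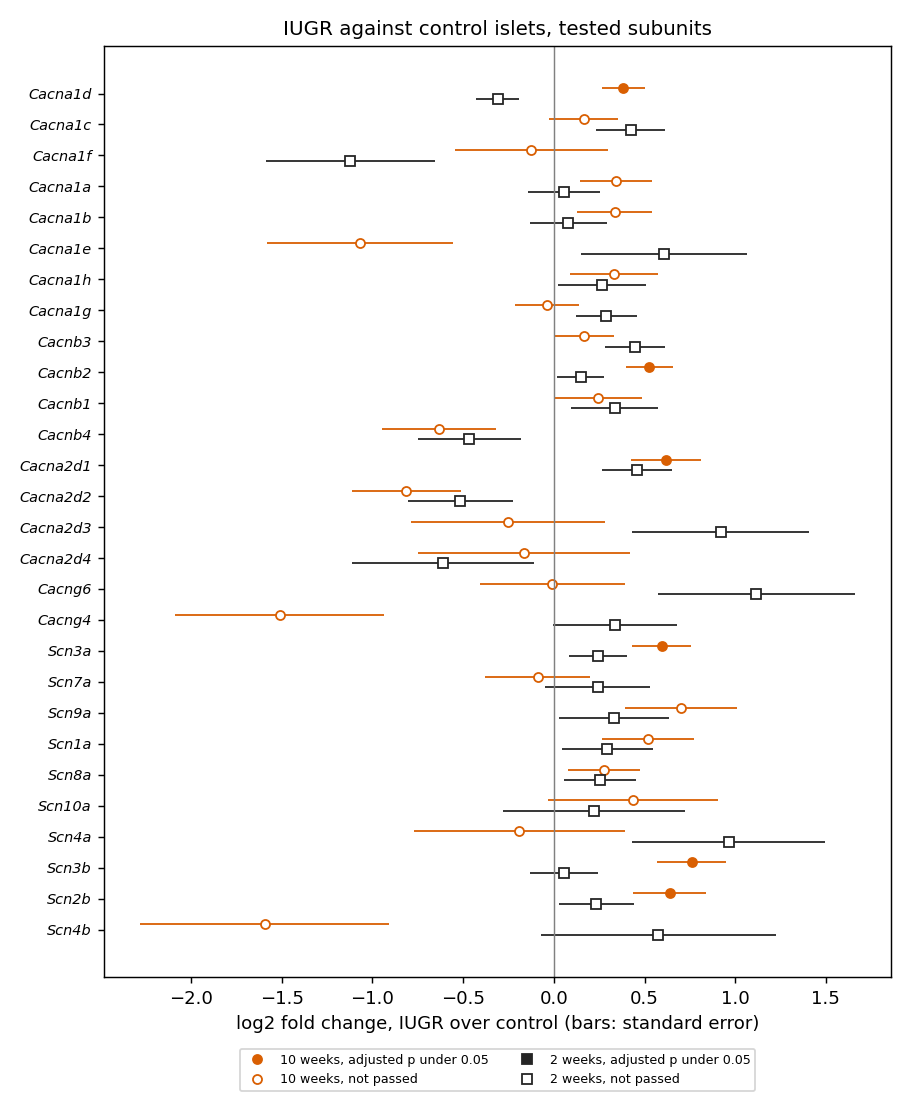
Log2 fold change of IUGR over control islets for the 28 tested subunits at 10 weeks (circles) and 2 weeks (squares), with standard errors; filled symbols passed an adjusted p under 0.05. At 10 weeks 6 symbols to the right of 0 are filled, and none is filled at 2 weeks. The 6 were at -0.38 to -9.9e-04 when libraries were scaled to pan-endocrine genes.

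At 2 weeks, none of the 28 members passed in either direction in the comparison of IUGR with control islets, where 3.88% of all tested transcripts did (1.66% higher, 2.21% lower). By edgeR 5 members had an unadjusted p under 0.05, and DESeq2 called 0 as well. The members' fold changes ranged from -1.12 to 1.12 on the log2 scale with a median of 0.26, against 0.05 over all transcripts, and 23 of the 28 were above 0. In the fit without 2-week control replicate 3, Cacna2d1, Cacnb3 and Scn3a passed as higher, 3 members in all. The change of the IUGR effect between the ages, 10 weeks over 2 weeks, was called for 1 of 28 members (3.57%), Cacna1d, upward, against 14.3% of all transcripts (3.97% upward, 10.4% downward). By edgeR 5 members had an unadjusted p under 0.05 for this difference, and DESeq2 also called 0 downward. Scaling to the pan-endocrine genes shifted the median of this difference by -0.40 and took the Cacna1d call away. The higher count was 0 without 2-week IUGR replicate 1 and 3 without 2-week control replicate 1, and the lower count was 2 without 10-week control replicate 1 and 1 without 10-week IUGR replicate 1.

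More members passed in the comparisons of ages. In IUGR islets 12 members were higher and 6 lower at 10 weeks than at 2 weeks, 64.3% of the 28 tested, where 56.5% of all transcripts were called (27.3% higher, 29.2% lower). In control islets 7 were higher and 3 lower, 35.7% of the tested members, where 32.3% of all transcripts were called (17.2% higher, 15.1% lower). The 2 age comparisons and the 2 IUGR comparisons share their groups, so their values are set side by side and are not independent. Scaling to the pan-endocrine genes shifted the median of all transcripts by -1.30 in IUGR and -0.90 in control islets, and there 9 of the 12 rises in IUGR islets and 3 of the 7 in control islets turned to below 0. The rises that stayed above 0 in IUGR islets were those of Cacna1f, Cacng6 and Scn2b. Over the same interval, 19 of 22 endocrine genes and 9 of 9 beta cell genes were higher at 10 weeks in IUGR islets, while 12 of 12 fibroblast genes and 12 of 13 Schwann cell genes were lower, and of 17 neuron genes 6 were higher and 9 lower. With the acinar level as a model term, 1 member was called higher with age in IUGR islets, where 4196 of all 20733 transcripts were. In IUGR islets the lower count was 3 without 2-week IUGR replicate 1 or 10-week IUGR replicate 2 and 2 without 10-week IUGR replicate 3. In control islets it was 1 without 2-week control replicate 2 or 10-week control replicate 1. Without both 10-week control libraries above 40% acinar counts, which sets 1 control library at 10 weeks against 3 at 2 weeks with the spread taken from the other groups, 2 members were called higher and 0 lower with age in control islets. All 10 fold changes kept their direction there, and of the 10 the value of Cacna1g moved by over 1.5 times, to -0.29, against -0.55 with all libraries.

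**Figure D2:**
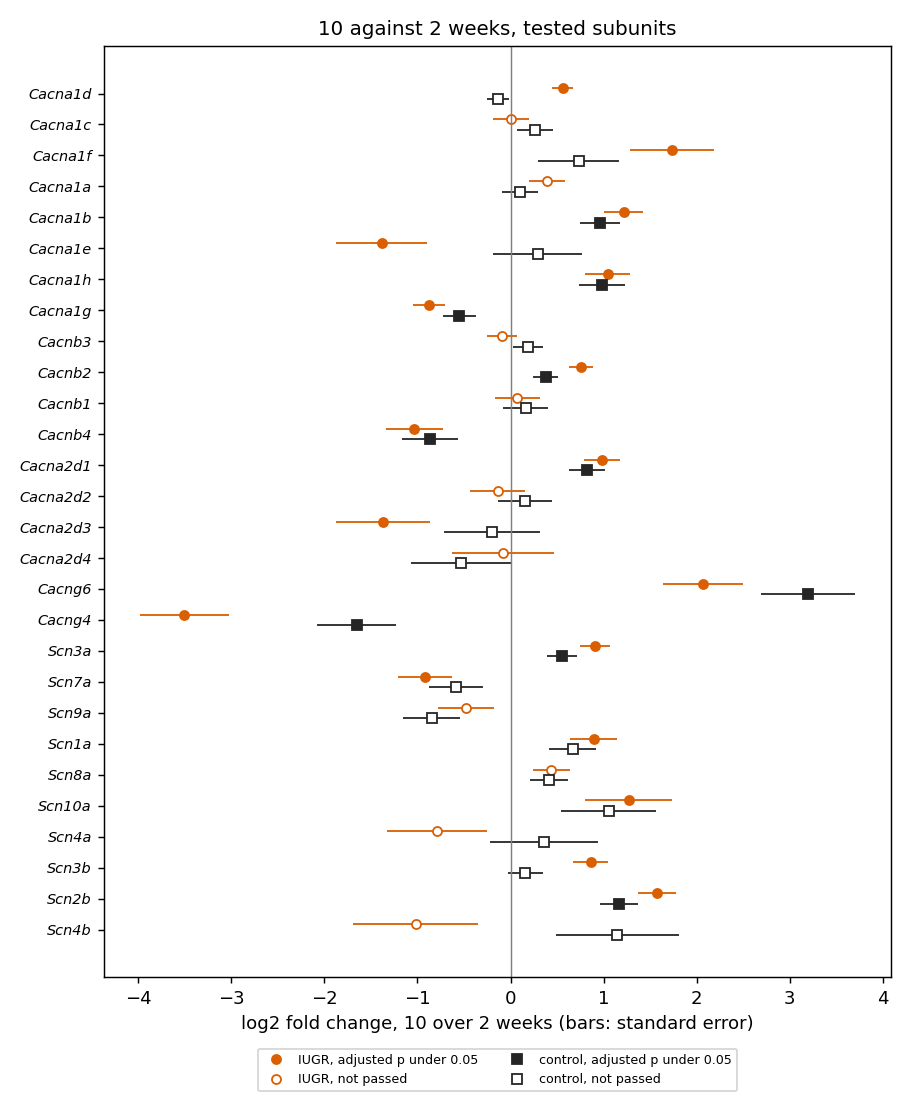
Log2 fold change of 10 over 2 weeks for the 28 tested subunits in IUGR islets (circles) and control islets (squares), with standard errors; filled symbols passed an adjusted p under 0.05. In IUGR islets 12 are filled to the right and 6 to the left, in control islets 7 and 3; scaled to pan-endocrine genes, 9 and 3 of the rises lay below 0.

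Within the L-type pores, Cacna1d was the gene whose response to IUGR changed with age. Its level at 10 weeks was 46.8, 39.9 and 51.6 in IUGR islets, against 39.6, 35.9 and 30.6 in control islets (scaled CPM, replicates 1 to 3 here and throughout). At 2 weeks it was 28.4, 33.7 and 31.8 in IUGR islets, against 38.5, 39.6 and 38.2 in control islets. All 3 IUGR libraries lay above the control libraries at 10 weeks, by a small margin (39.88 against 39.61 at the nearest), and below them at 2 weeks. Of all transcripts, 21.3% lay higher without overlap at 10 weeks and 16.8% lower at 2 weeks. By CPM over the raw library total the 2-week groups overlapped, at 39.1 to 47.3 in IUGR and 29.7 to 45.4 in control islets. The log2 fold change of IUGR over control was 0.38 ± 0.12, adjusted p = 0.0329 at 10 weeks and -0.31 ± 0.12, adjusted p = 0.121 at 2 weeks, and the difference between these effects was 0.69 ± 0.17, adjusted p = 0.0196. With age it rose in IUGR islets (0.56 ± 0.12, adjusted p = 0.00191) and the value was -0.13 ± 0.12, adjusted p = 0.396 in control islets. The 10-week IUGR call of Cacna1d was lost without 10-week IUGR replicates 1 or 3 or 10-week control replicates 2 or 3, where it was 0.30 to 0.41, and the difference without 2-week IUGR replicate 1, where it was 0.63. A covariate for the acinar level put the 10-week value at -0.07. The table holds 8 transcripts of Cacna1d, and the least counted of them had 69.8% of the highest.

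Cacna1c, the L-type pore of heart and smooth muscle that beta cells also use, passed no test. It had 33.6, 26.3 and 34.6 in IUGR islets, against 26.9, 35.1 and 22.3 in control islets at 10 weeks, and 32.3, 36.02 and 25.9 in IUGR islets, against 19.03, 25.7 and 25.4 in control islets at 2 weeks. Its groups overlapped at 10 weeks, and at 2 weeks the IUGR libraries lay above the control libraries by a small margin (0.42 ± 0.19, adjusted p = 0.1696). Of all transcripts, 21.8% lay higher without overlap at 2 weeks. Cacna1f, the L-type pore of photoreceptors, was sparse, with 13, 7 and 10 counts in IUGR islets at 10 weeks and 7, 6 and 2 at 2 weeks, which after scaling was 0.362, 0.174 and 0.247 against 0.0992, 0.0931 and 0.0334 CPM. It was higher at 10 weeks in IUGR islets (1.73 ± 0.45, adjusted p = 0.00704), and control islets had 10, 13 and 6 counts at 10 weeks and 7, 10 and 6 at 2 weeks (0.73 ± 0.43, adjusted p = 0.213). The count ratio of Cacna1d to Cacna1c, which does not depend on scaling, was 1.39 to 1.51 in IUGR islets at 10 weeks, against 1.02 to 1.47 in control islets, and 0.879 to 1.23 in IUGR islets at 2 weeks, against 1.505 to 2.03 in control islets. The ranges of this ratio overlapped at 10 weeks and not at 2 weeks, and with 3 libraries a side an exact permutation test of such a ratio cannot go below a p of 0.1.

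Of the Cav2 pores, Cacna1b and Cacna1e changed with age, and none passed the test of IUGR against control islets at either age. Cacna1b, the N-type pore of nerve terminals, had 12.6, 9.09 and 13.9 in IUGR islets, against 11.1, 9.004 and 8.11 in control islets at 10 weeks. The 2-week levels were 5.23, 5.49 and 4.61 in IUGR islets, against 3.43, 5.299 and 5.71 in control islets, so that every 10-week library lay above every 2-week library of its own condition. Of all transcripts, 33.9% in IUGR and 20.6% in control islets lay higher with age without overlap. The rise of Cacna1b with age was 1.22 ± 0.21, adjusted p = 5.56e-04 in IUGR islets and 0.96 ± 0.21, adjusted p = 0.00652 in control islets. Cacna1a, the P/Q-type pore, had 33.4, 29.96 and 40.1 in IUGR islets, against 30.7, 30.1 and 20.5 in control islets at 10 weeks. At 2 weeks Cacna1a had 24.6, 30.2 and 23.98 in IUGR islets, against 18.7, 28.1 and 28.9 in control islets. These groups overlapped, and no test passed, with 0.39 ± 0.20, adjusted p = 0.111 for age in IUGR islets. The count ratio of Cacna1a to Cacna1b was 2.65 to 3.30 in IUGR islets at 10 weeks, against 4.71 to 5.49 at 2 weeks, and 2.53 to 3.34 in control islets at 10 weeks, against 5.06 to 5.46 at 2 weeks. Cacna1e, the R-type pore, had 9, 12 and 7 counts in IUGR islets at 10 weeks, against 39, 50 and 34 at 2 weeks, and fell with age (-1.38 ± 0.49, adjusted p = 0.0318). That call was lost without 10-week IUGR replicates 1, 2 or 3 or 2-week IUGR replicates 1, 2 or 3, where it was -1.57 to -1.19. In control islets it had 6, 27 and 19 counts at 10 weeks and 7, 31 and 21 at 2 weeks, and the test did not pass (0.29 ± 0.48, adjusted p = 0.664).

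The T-type pores Cacna1h and Cacna1g went opposite ways with age in both conditions. Cacna1h had 26.8, 18.4 and 32.7 in IUGR islets, against 21.9, 22.6 and 17.4 in control islets at 10 weeks. It had 12.5, 15.1 and 10.2 in IUGR islets, against 7.87, 13.7 and 9.79 in control islets at 2 weeks. The 10-week levels lay above the 2-week levels in each condition, as for 33.9% of all transcripts in IUGR and 20.6% in control islets. Cacna1h rose with age by 1.04 ± 0.24, adjusted p = 0.00372 in IUGR and 0.98 ± 0.25, adjusted p = 0.0121 in control islets. Cacna1g had 8.77, 6.600 and 7.19 in IUGR islets, against 7.35, 9.26 and 6.46 in control islets at 10 weeks. Its levels at 2 weeks were 13.9, 15.9 and 11.6 in IUGR islets, against 9.59, 12.1 and 12.1 in control islets. Cacna1g fell with age, with log2 fold changes of -0.88 ± 0.17, adjusted p = 0.00132 in IUGR and -0.55 ± 0.17, adjusted p = 0.0329 in control islets. The control call was lost without 10-week control replicates 1 or 3 or 2-week control replicates 2 or 3, where it was -0.53 to -0.43. Within each library, the count ratio of Cacna1h to Cacna1g was 2.78 to 4.55 in IUGR islets at 10 weeks, against 0.880 to 0.948 at 2 weeks, and 2.44 to 2.98 in control islets at 10 weeks, against 0.807 to 1.13 at 2 weeks. The opposite directions on the log2 scale held under all scalings run except that to the pan-endocrine genes, where Cacna1h in IUGR islets was at -0.29.

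**Figure D3:**
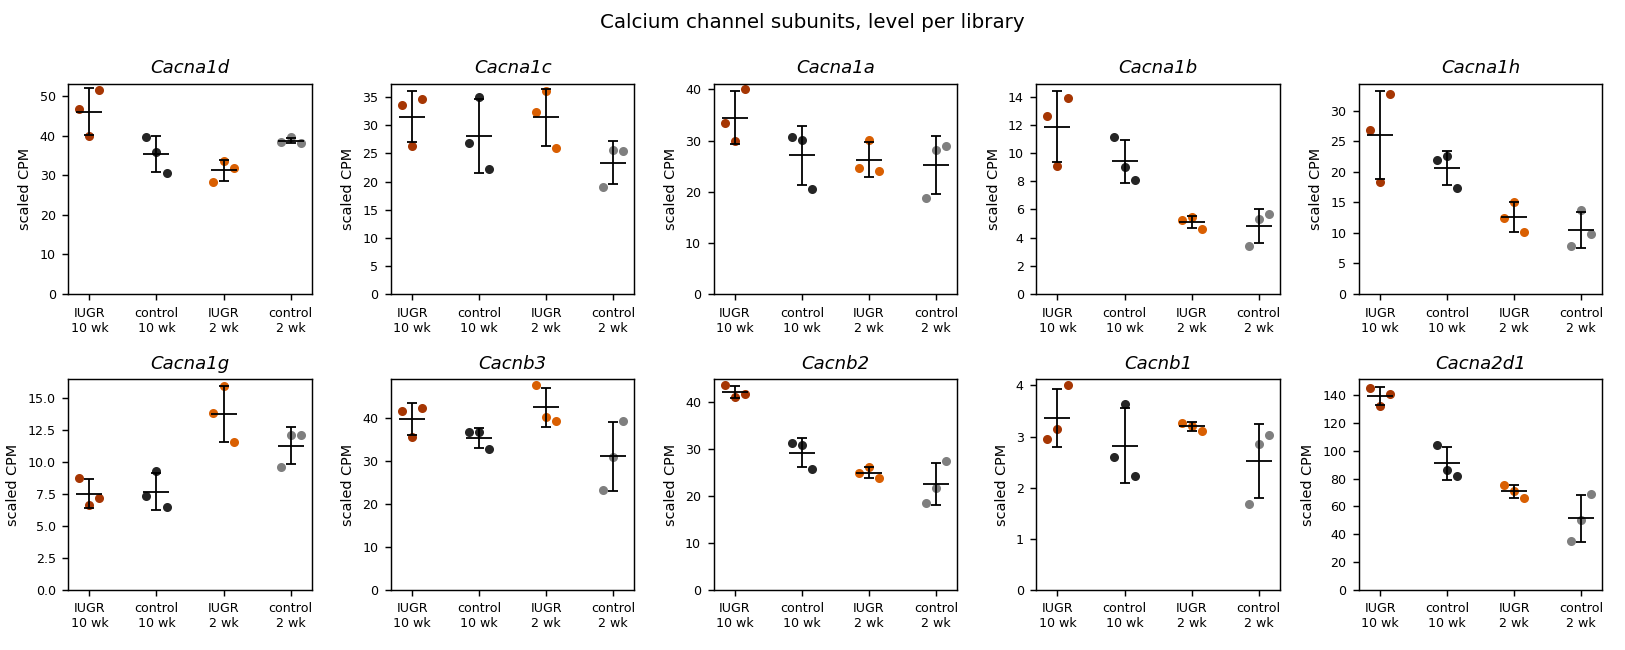
Level of the 10 calcium channel subunits with a mean of at least 2 scaled CPM, by group (10-week IUGR, 10-week control, 2-week IUGR, 2-week control). Points are libraries, horizontal marks group means and bars SD (n = 3); Cacna2d1 and Cacnb2 in 10-week IUGR islets lie above all other groups, and scaled to pan-endocrine genes their IUGR fold changes lay below 0.

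Among the calcium channel beta subunits, which chaperone the pore to the membrane, Cacnb2 rose in IUGR islets at 10 weeks. It had 43.6, 41.02 and 41.7 in IUGR islets, against 31.2, 30.8 and 25.7 in control islets at 10 weeks, and the groups were well apart. At 2 weeks the levels were 24.96, 26.1 and 23.8 in IUGR islets, against 18.4, 21.7 and 27.4 in control islets, and the groups overlapped. The IUGR effect was 0.53 ± 0.13, adjusted p = 0.0145 at 10 weeks and 0.15 ± 0.13, adjusted p = 0.473 at 2 weeks, and the difference between them did not pass (0.38 ± 0.18, adjusted p = 0.188). It rose with age in IUGR islets (0.75 ± 0.13, adjusted p = 5.61e-04). The call with age in control islets (0.38 ± 0.13, adjusted p = 0.0476) concerned groups that overlap, and it was lost without 10-week IUGR replicates 1, 2 or 3, 2-week IUGR replicates 1, 2 or 3, 10-week control replicates 1 or 2 or 2-week control replicates 1 or 2, where it was 0.25 to 0.38. The 10-week IUGR call of Cacnb2 was lost without 10-week control replicate 3, where it was 0.45.

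Cacnb3, whose loss in mouse raises glucose-stimulated insulin release, passed no test, with 41.6, 35.5 and 42.2 in IUGR islets, against 36.7, 36.8 and 32.6 in control islets at 10 weeks and 47.7, 40.2 and 39.3 in IUGR islets, against 23.1, 30.8 and 39.2 in control islets at 2 weeks. The IUGR libraries lay above the control libraries at 2 weeks (0.45 ± 0.16, adjusted p = 0.113), as for 21.8% of all transcripts. Its count ratio to Cacnb2 was 0.866 to 1.01 in IUGR islets at 10 weeks, against 1.17 to 1.27 in control islets, and 1.54 to 1.91 in IUGR islets at 2 weeks, against 1.26 to 1.43 in control islets. The ratio was thus below that of controls at 10 weeks and above it at 2 weeks, with no overlap at either age. Cacnb1, the beta subunit of skeletal muscle, had 2.95, 3.14 and 4.003 in IUGR islets, against 2.598, 3.64 and 2.23 in control islets at 10 weeks and 3.27, 3.21 and 3.11 in IUGR islets, against 1.69, 2.85 and 3.02 in control islets at 2 weeks, and passed no test. Cacnb4, best known from brain, had 1.09, 0.523 and 0.544 in IUGR islets, against 0.919, 0.964 and 1.46 in control islets at 10 weeks. At 2 weeks Cacnb4 stood at 1.602, 1.41 and 1.37 in IUGR islets, against 2.29, 2.17 and 1.61 in control islets. It fell with age in IUGR islets (-1.03 ± 0.30, adjusted p = 0.01300) and in control islets (-0.87 ± 0.30, adjusted p = 0.0456). The first call was lost without 10-week IUGR replicates 2 or 3, where it was -0.86 to -0.85, and the second without 2-week IUGR replicates 1, 2 or 3, 10-week control replicates 1 or 2 or 2-week control replicates 1 or 2, where it was -0.87 to -0.77.

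Cacna2d1, the alpha2delta subunit that binds gabapentin and whose loss in mouse impairs insulin release, was higher in IUGR than in control islets at 10 weeks. It had 145, 133 and 141 in IUGR islets, against 104, 86.4 and 82.3 in control islets at 10 weeks. The 2-week levels were 75.3, 71.02 and 66.1 in IUGR islets, against 35.5, 50.2 and 68.97 in control islets. The 10-week IUGR libraries lay above all 9 others, and the 2-week groups overlapped. The IUGR effect was 0.62 ± 0.19, adjusted p = 0.0355 at 10 weeks and 0.46 ± 0.19, adjusted p = 0.151 at 2 weeks, with a difference of 0.16 ± 0.27, adjusted p = 0.734. Cacna2d1 rose with age by 0.98 ± 0.19, adjusted p = 0.00134 in IUGR islets and 0.82 ± 0.19, adjusted p = 0.00893 in control islets. The 10-week IUGR call was lost without 10-week IUGR replicates 1, 2 or 3, 2-week IUGR replicates 1 or 2 or 10-week control replicates 2 or 3, where it was 0.55 to 0.65. Of the other alpha2delta genes, Cacna2d3 had 19, 23 and 13 counts in IUGR islets at 10 weeks, against 82, 98 and 60 at 2 weeks, and fell with age there (-1.37 ± 0.51, adjusted p = 0.03797), a call lost without 10-week IUGR replicates 1, 2 or 3, 2-week IUGR replicates 1, 2 or 3 or 2-week control replicate 3, where it was -1.53 to -1.15. In control islets Cacna2d3 had 7, 46 and 9 counts at 10 weeks and 13, 42 and 37 at 2 weeks (-0.20 ± 0.52, adjusted p = 0.7896). Cacna2d2 passed no test, and its level of 1.11, 0.922 and 1.16 in IUGR islets, against 2.19, 1.48 and 1.97 in control islets at 10 weeks did not overlap between the groups (-0.81 ± 0.30, adjusted p = 0.0637). Cacna2d4, a retinal subunit, had 2 to 13 counts in every library and passed no test.

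Only 2 of the 8 gamma subunit genes were counted deeply enough to test, and both changed with age, in opposite directions. Cacng6, a relative of the skeletal muscle gamma subunit, had 12, 27 and 33 counts in IUGR islets at 10 weeks, against 11, 9 and 8 at 2 weeks, and 18, 33 and 13 counts in control islets at 10 weeks, against 1, 6 and 2 at 2 weeks. It rose with age by 2.07 ± 0.43, adjusted p = 0.00187 in IUGR islets and 3.19 ± 0.51, adjusted p = 0.00114 in control islets. Cacng4, which escorts AMPA receptors, had 3, 1 and 1 counts in IUGR islets at 10 weeks, against 38, 34 and 29 at 2 weeks, and 2, 6 and 5 counts in control islets at 10 weeks, against 11, 20 and 26 at 2 weeks. It fell by 3.50 ± 0.48, adjusted p = 1.15e-04 on the log2 scale in IUGR islets and by 1.65 ± 0.42, adjusted p = 0.0129 in control islets. The direction of both changes held under every scaling and with each library left out in turn, while counts of 1 to 6 leave the size of the folds uncertain. The Cacng6 call in IUGR islets was lost under pan-endocrine scaling and with the acinar covariate. Over all alternatives its lowest value there was 0.79. The rise of Cacng6 and the fall of Cacng4 were not shown to differ between the conditions (-1.12 ± 0.67, adjusted p = 0.283 and -1.85 ± 0.67, adjusted p = 0.0875 for the difference).

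Scn3a, which in mouse islets encodes a main functional sodium channel of alpha and beta cells, was higher in IUGR than in control islets at 10 weeks. It had 154, 148 and 165 in IUGR islets, against 104, 103 and 101 in control islets at 10 weeks. The 2-week levels were 80.6, 85.7 and 82.3 in IUGR islets, against 50.2, 69.6 and 89.98 in control islets. The 3 IUGR libraries at 10 weeks lay above all others, and the 2-week groups overlapped. The IUGR effect was 0.60 ± 0.16, adjusted p = 0.0211 at 10 weeks and 0.24 ± 0.16, adjusted p = 0.335 at 2 weeks, with a difference of 0.35 ± 0.23, adjusted p = 0.326. The rise with age was 0.91 ± 0.16, adjusted p = 7.14e-04 in IUGR islets and 0.56 ± 0.16, adjusted p = 0.0234 in control islets. The 10-week IUGR call was lost without 10-week IUGR replicates 1 or 3 or 10-week control replicate 3, where it was 0.55 to 0.61. The age call in control islets was lost without 10-week control replicate 1 or 2-week control replicate 2, where it was 0.53 to 0.55, and the value fell to 0.37 without 2-week control replicate 1. Scn1a, a pore of inhibitory neurons, had 9.66, 9.04 and 8.797 in IUGR islets, against 6.69, 6.77 and 5.696 in control islets at 10 weeks and 4.68, 5.03 and 5.11 in IUGR islets, against 2.23, 3.89 and 5.86 in control islets at 2 weeks. The 10-week groups did not overlap, yet the test did not pass (0.52 ± 0.25, adjusted p = 0.144), and Scn1a rose with age in IUGR islets (0.89 ± 0.25, adjusted p = 0.0106). The count ratio of Scn3a to Scn1a was between 15.25 and 22.5 in all 12 libraries.

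Scn7a, which encodes a sodium-level sensor without voltage gating that is known from glia, went the other way with age. It had 49.98, 58.3 and 40.7 in IUGR islets, against 41.7, 72.8 and 43.8 in control islets at 10 weeks. At 2 weeks it had 115, 89.6 and 77.5 in IUGR islets, against 50.1, 109 and 79.1 in control islets. The fall with age in IUGR islets was -0.92 ± 0.29, adjusted p = 0.0193, and the test did not pass in control islets (-0.59 ± 0.29, adjusted p = 0.142). The IUGR call was lost without 10-week IUGR replicate 3 or 2-week IUGR replicate 1, where it was -0.79 to -0.75. Beside this, the summed level of the 13 Schwann cell genes was 52.1 to 61.8 scaled CPM in IUGR islets at 10 weeks, against 174 to 191 at 2 weeks, and its part in the result was not tested. The count ratio of Scn3a to Scn7a was 2.53 to 4.06 in IUGR islets at 10 weeks, against 0.703 to 1.06 at 2 weeks, and 1.42 to 2.49 in control islets at 10 weeks, against 0.640 to 1.14 at 2 weeks. Scn9a, which in mouse is the most expressed sodium pore of beta cells, had 28.7, 27.3 and 15.6 in IUGR islets, against 14.2, 18.6 and 11.2 in control islets at 10 weeks and 35.3, 30.9 and 33.7 in IUGR islets, against 16.6, 23.99 and 38.6 in control islets at 2 weeks. The Scn9a libraries spread widely in 10-week IUGR and 2-week control islets and lay close together in 2-week IUGR islets. No test passed for Scn9a, with an IUGR effect of 0.70 ± 0.31, adjusted p = 0.111 at 10 weeks. With age the value was -0.48 ± 0.30, adjusted p = 0.198 in IUGR islets and -0.85 ± 0.31, adjusted p = 0.0555 in control islets. The IUGR groups did not overlap there, as for 35.5% of all transcripts in that direction. Scn8a, a pore of central and peripheral neurons, had 4.37, 4.23 and 5.39 in IUGR islets, against 3.71, 4.63 and 3.18 in control islets at 10 weeks and 3.17, 4.22 and 2.94 in IUGR islets, against 2.35, 3.11 and 3.18 in control islets at 2 weeks, and passed no test.

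The remaining sodium pores described here were sparse. Scn10a, a sodium channel of pain-sensing neurons, had 24, 22 and 15 counts in IUGR islets at 10 weeks, against 22, 15 and 6 at 2 weeks, which after scaling was 0.668, 0.548 and 0.371 against 0.312, 0.233 and 0.1002 CPM, and rose with age there (1.27 ± 0.47, adjusted p = 0.0371). This call was lost without 10-week IUGR replicates 1 or 2 or 2-week IUGR replicates 2 or 3, where it was 0.95 to 1.33. In control islets Scn10a had 12, 23 and 6 counts at 10 weeks and 4, 8 and 14 at 2 weeks (1.05 ± 0.51, adjusted p = 0.131). Scn4a, the skeletal muscle sodium channel, had 3 to 31 counts in every library and passed no test.

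**Figure D4:**
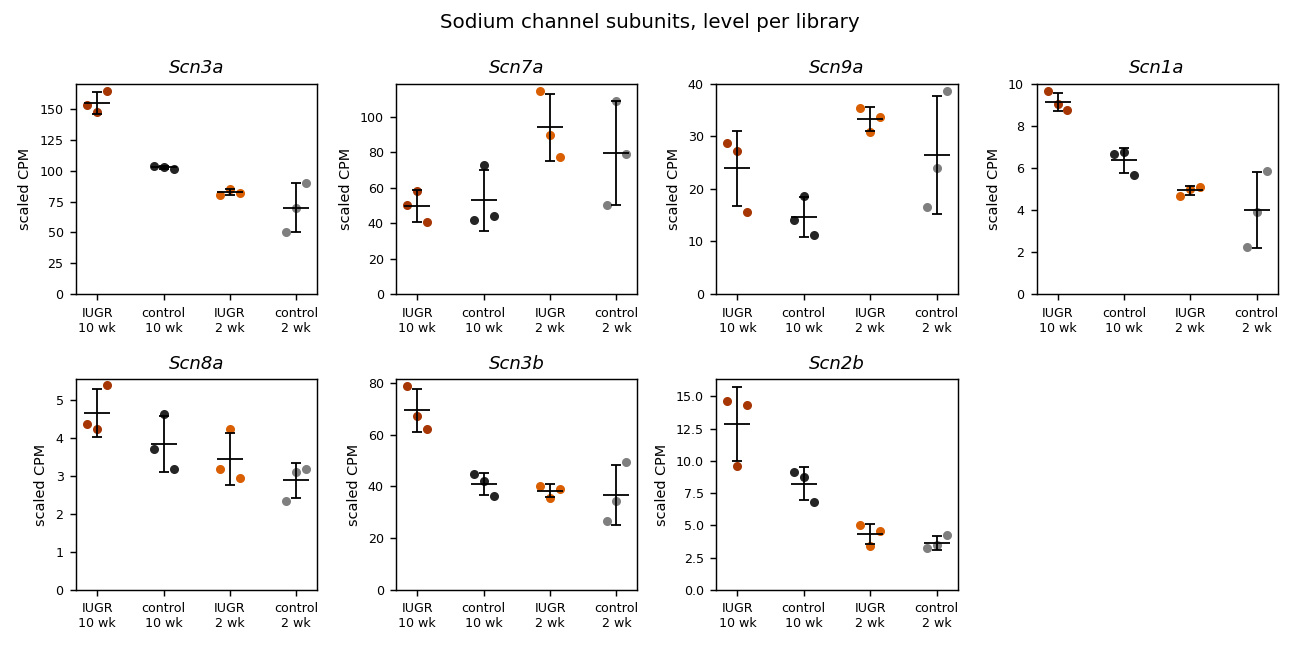
Level of the 7 sodium channel subunits with a mean of at least 2 scaled CPM, by group (10-week IUGR, 10-week control, 2-week IUGR, 2-week control). Points are libraries, horizontal marks group means and bars SD (n = 3). Scn3a and Scn3b are highest in 10-week IUGR islets. The pan-endocrine scaling puts their 10-week IUGR log2 fold changes at -0.18 and -9.9e-04.

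Among the sodium channel beta subunits, which set gating and adhesion, Scn3b and Scn2b were higher in IUGR than in control islets at 10 weeks. Scn3b had 78.7, 67.2 and 62.3 in IUGR islets, against 44.6, 41.96 and 36.3 in control islets at 10 weeks. The 2-week levels of Scn3b were 40.2, 35.5 and 39.1 in IUGR islets, against 26.4, 34.4 and 49.3 in control islets. The 10-week IUGR libraries lay above all others. The effect of IUGR was 0.76 ± 0.19, adjusted p = 0.0148 at 10 weeks and 0.06 ± 0.19, adjusted p = 0.867 at 2 weeks, with a difference of 0.70 ± 0.27, adjusted p = 0.101. With age Scn3b rose in IUGR islets (0.86 ± 0.19, adjusted p = 0.00263), and the value in control islets was 0.16 ± 0.19, adjusted p = 0.542. The 10-week IUGR call was lost without 10-week IUGR replicate 1 or 10-week control replicate 3, where it was 0.66 to 0.69. Scn2b had 14.6, 9.56 and 14.3 in IUGR islets, against 9.16, 8.75 and 6.79 in control islets at 10 weeks, and 4.99, 3.43 and 4.54 in IUGR islets, against 3.23, 3.48 and 4.28 in control islets at 2 weeks. Every 10-week library lay above every 2-week library, where 33.9% of all transcripts in IUGR and 20.6% in control islets lay higher without overlap. Its IUGR effect at 10 weeks was 0.64 ± 0.20, adjusted p = 0.0366, and it rose with age by 1.57 ± 0.20, adjusted p = 8.83e-05 in IUGR islets and 1.17 ± 0.21, adjusted p = 0.00213 in control islets. The IUGR call of Scn2b was lost without 10-week IUGR replicates 1 or 3, 2-week IUGR replicate 3 or 10-week control replicates 2 or 3, where it was 0.53 to 0.70. Scn4b had 11, 23 and 17 counts in IUGR islets at 10 weeks, against 13, 44 and 70 in control islets, and passed no test (-1.59 ± 0.69, adjusted p = 0.104).

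The balance between the beta subunits can be read within each library, without scaling. The count ratio of Scn3b to Scn2b was 4.35 to 7.03 in IUGR islets at 10 weeks, against 8.05 to 10.3 at 2 weeks, and 4.80 to 5.34 in control islets at 10 weeks, against 8.18 to 11.5 at 2 weeks. It was lower in all 10-week libraries than in all 2-week libraries.

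**Figure D5:**
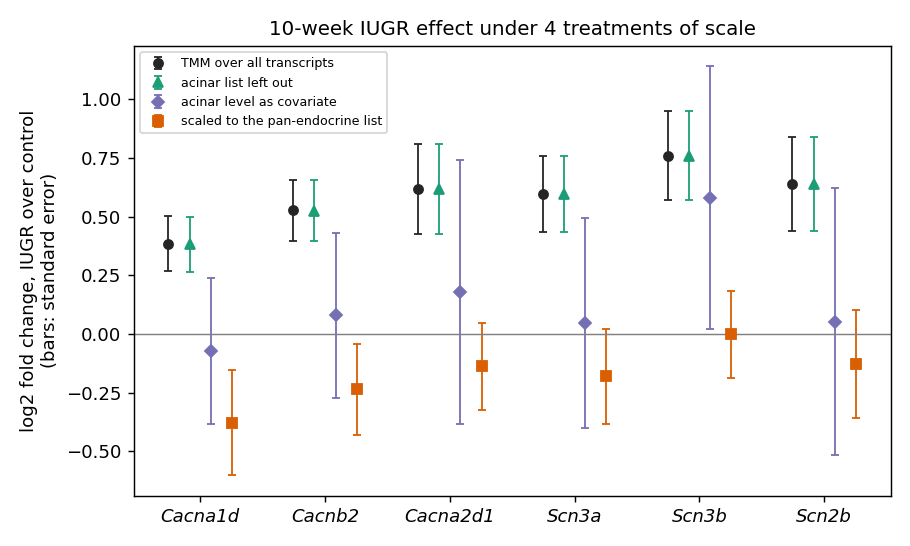
Log2 fold change of IUGR over control islets at 10 weeks, with standard errors, for the 6 called members under 4 treatments of scale: all transcripts, acinar genes left out, the acinar level as a covariate, and scaling to pan-endocrine genes. All 6 lie below 0 under pan-endocrine scaling (Scn3b at -9.9e-04), as does Cacna1d with the covariate.

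The sign of the 6 rises at 10 weeks depended on the scaling. Scaled to the pan-endocrine genes, the log2 fold changes were -0.38 for Cacna1d, -0.24 for Cacnb2, -0.14 for Cacna2d1, -0.18 for Scn3a and -0.13 for Scn2b. The median of all transcripts was -0.78 on that scale, so each of these 5 genes lay above the median of all transcripts, and Scn3b was at -9.9e-04. On the scaling to all transcripts, the 22 endocrine genes had a median log2 fold change of 0.69 and 10 of them were not called. The 5 genes lay below that median, and Scn3b, at 0.76, lay above it. Leaving the acinar genes out of the counts left the 6 calls in place. Of the 22 pan-endocrine genes, 4 also belong to the exocytosis list below and 2 to the potassium channel list.

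Promoter sequences are shown for the 3 members that were higher in IUGR islets at 10 weeks and have a single entry in the RefSeq promoter table, to set side by side genes called in the same comparison. Cacna1d had log2 fold changes below 0 for IUGR at 2 weeks and for age in control islets where those of Scn3a and Scn2b were above 0. Each sequence runs from 250 bases before to 50 bases after the RefSeq start on the GRCr8 build, and 26 member symbols matched 29 promoters in all. Capitals mark GC boxes (GGGCGG on either strand), E-boxes (CANNTG, which reads alike on both strands) and TATA boxes (TATAAA on either strand), with overlapping matches counted. Cacna1d lies at chr16:5527500-5527799 on the minus strand, Scn3a at chr3:70666149-70666448 on the minus strand and Scn2b at chr8:54322133-54322432 on the plus strand.
Cacna1d: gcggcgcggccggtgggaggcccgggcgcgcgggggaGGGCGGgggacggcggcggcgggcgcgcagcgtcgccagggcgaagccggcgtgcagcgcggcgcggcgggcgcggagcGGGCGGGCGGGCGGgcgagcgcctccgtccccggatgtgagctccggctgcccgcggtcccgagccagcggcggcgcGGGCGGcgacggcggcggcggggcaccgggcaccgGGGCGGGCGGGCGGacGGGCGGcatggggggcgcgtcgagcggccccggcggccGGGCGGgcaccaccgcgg
Scn3a: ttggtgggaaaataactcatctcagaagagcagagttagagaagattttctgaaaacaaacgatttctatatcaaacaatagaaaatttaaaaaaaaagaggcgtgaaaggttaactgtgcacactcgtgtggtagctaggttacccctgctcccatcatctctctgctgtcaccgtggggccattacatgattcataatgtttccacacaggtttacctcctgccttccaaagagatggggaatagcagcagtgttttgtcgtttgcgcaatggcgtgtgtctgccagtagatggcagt
Scn2b: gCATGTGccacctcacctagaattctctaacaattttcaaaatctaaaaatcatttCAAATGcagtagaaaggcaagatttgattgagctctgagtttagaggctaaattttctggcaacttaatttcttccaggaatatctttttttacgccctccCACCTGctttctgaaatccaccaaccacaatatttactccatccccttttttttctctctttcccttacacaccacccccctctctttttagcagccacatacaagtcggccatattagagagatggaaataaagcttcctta
The Cacna1d window was 88.7% G or C with 66 CpG sites and 10 GC boxes, where the median of all 33469 promoters was 51.7% and 7 CpG sites. The Scn3a window was 43.3% G or C with 7 CpG sites and held none of the motifs. The Scn2b window was 39.0% G or C with 2 CpG sites and 3 E-boxes. The 3 promoters thus differed in base composition. Over all promoters, 33.1% held a GC box, 72.1% an E-box and 14.2% a TATA box, and over the 29 member promoters the numbers were 16, 19 and 2. These matches are descriptions of letters and not binding sites.

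Genes that work beside these channels were read from lists chosen with earlier results of these data known. Of 16 ATP-sensitive and other potassium channel genes, 4 were higher and 1 lower in IUGR than in control islets at 10 weeks (31.2%), near the 27.9% of all transcripts called. The large-conductance calcium-activated potassium channel gene Kcnma1 rose (0.64 ± 0.13, adjusted p = 0.00648), the small-conductance channel gene Kcnn3 rose (0.73 ± 0.19, adjusted p = 0.01797) and Kcnq1 fell (-2.85 ± 0.49, adjusted p = 0.00319). With age 7 of the 16 were higher and 3 lower in IUGR islets (62.5%, against 56.5% of all transcripts), and 5 higher and 0 lower in control islets (31.2%, against 32.3%). Kcnma1 rose with age in IUGR islets by 2.30 ± 0.14, adjusted p = 1.73e-06. At 2 weeks, 1 was higher in IUGR islets, Kcnma1 (0.59 ± 0.13, adjusted p = 0.0458), and 1 lower, Kcna2 (-1.74 ± 0.36, adjusted p = 0.0431). Together they made 12.5% of the 16, against 3.88% of all transcripts. Of 26 calcium handling genes, 11 were higher and 4 lower in IUGR islets at 10 weeks (57.7%, against 27.9% of all transcripts), among them the sodium-calcium exchanger gene Slc8a3 (1.40 ± 0.26, adjusted p = 0.00468), the ryanodine receptor gene Ryr3 (1.06 ± 0.21, adjusted p = 0.00623) and the inositol trisphosphate receptor gene Itpr2 (-0.69 ± 0.14, adjusted p = 0.00551). With age 12 were higher and 8 lower in IUGR islets (76.9%, against 56.5% of all transcripts), and 8 higher and 2 lower in control islets (38.5%, against 32.3%). The plasma membrane calcium pump gene Atp2b3 rose by 2.52 ± 0.17, adjusted p = 2.56e-06 in IUGR islets and 1.88 ± 0.17, adjusted p = 9.39e-05 in control islets.

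Of 30 genes whose products bind or regulate these channels, 6 were higher and 7 lower in IUGR islets at 10 weeks (43.3%, against 27.9% of all transcripts). Fgf13, an intracellular partner of sodium channels, fell by 4.04 ± 0.41, adjusted p = 5.35e-04 on the log2 scale, and its difference between the ages was -4.61 ± 0.53, adjusted p = 0.00185. Rem2, a small GTPase that restrains calcium channels, rose (0.91 ± 0.15, adjusted p = 0.00309), and Stac, an adaptor of L-type channels, fell (-1.59 ± 0.32, adjusted p = 0.00597). With age, 8 were higher and 14 lower in IUGR islets (73.3%, against 56.5%), and 6 higher and 3 lower in control islets (30%, near the 32.3% of all transcripts). Of 31 genes of calcium-triggered exocytosis, 11 were higher and 3 lower in IUGR islets at 10 weeks (45.2%, against 27.9% of all transcripts), with Snap25, a SNARE protein gene of granule fusion, at 0.80 ± 0.16, adjusted p = 0.00674, and the calcium-binding granule gene Doc2b at -1.75 ± 0.39, adjusted p = 0.00944. With age 22 were higher and 5 lower in IUGR islets (87.1%, against 56.5% of all transcripts), and 17 higher and 1 lower in control islets (58.1%, against 32.3%), where Snap25 rose by 1.84 ± 0.17, adjusted p = 9.44e-05. Of 29 other cation channel genes, 5 were higher and 9 lower in IUGR islets at 10 weeks (48.3%, where 12.4% of all transcripts were higher and 15.5% lower), with the ATP-gated channel gene P2rx2 at 1.62 ± 0.24, adjusted p = 0.00175 and the calcium-activated channel gene Trpm4 at -2.08 ± 0.31, adjusted p = 0.00192. With age 10 were higher and 10 lower in IUGR islets (69.0%, against 56.5% of all transcripts), and 12 higher and 2 lower in control islets (48.3%, against 32.3%). At 2 weeks, at most 2 genes in any of these 5 lists were called in IUGR against control islets. That was 12.5% of the potassium channel list and 6.45% of the exocytosis list, against 3.88% of all transcripts. The share was 3.85% for calcium handling, 3.45% for other cation channels and 3.33% for genes that bind or regulate the channels. These shares describe the lists, and their excess over all transcripts was not tested. The shift of the median under pan-endocrine scaling applies to the genes of these lists as well.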

How the data were processed

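The deposited table holds whole-number read counts per transcript, with gene symbols, for 12 rat islet libraries. Per the submitters' processing notes, reads were handled with bedtools and TopHat2 2.0.9, and the builds rn5 and mm9 are listed with no role. The counting rule, its use of strand and the annotation were not given in the sources used here, so reads shared by overlapping genes or by transcripts of the same gene cannot be told apart. Members were rows whose symbol matched the channel name patterns, with the transcript of highest mean count kept per symbol. The rule matched 39 symbols, of which 2 are not reported here. The members and all gene lists were chosen with earlier results of these data known.

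All counts were fitted together in R 4.3.3 with edgeR 4.0.16 (filterByExpr by group with its minimum count of 10, trimmed-mean scaling, quasi-likelihood F test, robust), 1 fit of 4 groups, with Benjamini-Hochberg adjustment over 20733 transcripts. Values after ± in the text are standard errors of log2 fold changes (n = 3 libraries per group). Scaled CPM is CPM taken over the scaled library total. Values in every library are given for members averaging 2 scaled CPM or more or called in any of 5 comparisons, and of the companion lists at most 4 genes with the smallest p per comparison are named. Alternatives were DESeq2 1.42.0, other scalings, filters and thresholds, an acinar covariate, a replicate block and leaving libraries out. The fit was also run on simulated counts without a shift of the acinar share between groups, so that run does not bear on such a shift. Replicate libraries differed beyond counting noise, and each was counted as 1 sample.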

Additional observations from a re-analysis of the deposited data

Results flagged for a closer look

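The effect of IUGR on Cacna1d differed between the ages. The log2 fold change of IUGR over control islets was 0.38 ± 0.12 at 10 weeks and -0.31 ± 0.12 at 2 weeks (standard errors), and the tested difference was 0.69 ± 0.17 with an adjusted p of 0.0196 by edgeR's quasi-likelihood test. All 3 IUGR libraries lay above the control libraries at 10 weeks, by a small margin (39.88 against 39.61 scaled CPM at the nearest), and all 3 lay below them at 2 weeks. Among all transcripts, 21.3% lay higher without overlap at 10 weeks and 16.8% lower at 2 weeks. By CPM over the raw library total the 2-week groups overlapped, at 39.1 to 47.3 in IUGR and 29.7 to 45.4 in control islets. The call was lost without 2-week IUGR replicate 1, under scaling to the pan-endocrine genes and with an acinar term in the model. The shares of acinar and endocrine genes moved with the groups, and their part in the result was not tested.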

How the results depend on the processing

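Across the alternatives, 687 values of the called fold changes kept their direction and call, while 131 lost the call and 19 turned sign. This tally includes the adjusted p limit of 0.1 on the same fit, where all 35 called values keep direction and call by design. It also includes fits without a library from outside the comparison, and its values are not independent. Scaling to the pan-endocrine genes turned, at 10 weeks, Cacna1d (-0.38), Cacna2d1 (-0.14), Cacnb2 (-0.24), Scn2b (-0.13), Scn3a (-0.18) and Scn3b (-9.9e-04). With age in IUGR islets it turned Cacna1b (-0.10), Cacna1d (-0.76), Cacna1h (-0.29), Cacna2d1 (-0.33), Cacnb2 (-0.55), Scn10a (-0.0087), Scn1a (-0.41), Scn3a (-0.40) and Scn3b (-0.44), and in control islets Cacna2d1 (-0.026), Cacnb2 (-0.49) and Scn3a (-0.28). The acinar covariate turned Cacna1d at 10 weeks (-0.074). The cause was not tested.

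Under pan-endocrine scaling the counts of members higher and lower were 0 and 9 for IUGR at 10 weeks (6 and 0 as reported), 0 and 18 for age in IUGR islets (12 and 6), 1 and 11 for age in control islets (7 and 3), with 0 higher for the difference (1). Of all 20733 transcripts, that scaling called 12316 for IUGR at 10 weeks (21 higher) and 17121 for age in IUGR islets (315 higher). It called 14377 for age in control islets (471 higher) and 2262 for the difference (14 higher). With the acinar covariate, 450 of all 20733 transcripts were called at 10 weeks (28 higher) and 8632 for age in IUGR islets (4196 higher). For the difference 3212 were called (937 higher). The counts of members higher and lower with that covariate were 0 and 0 at 10 weeks, 1 higher for age in IUGR islets, and 0 higher and 1 lower for the difference. Without both 10-week control libraries above 40% acinar counts, which leaves 1 control library at that age and takes its spread from the other groups, 0 were higher at 10 weeks, 2 higher and 0 lower for age in control islets, and 1 lower for the difference. Without all 3 such control libraries, an alternative chosen after seeing the data, 1 control library is also left at 10 weeks. The 6 fold changes called at 10 weeks stayed above 0 there. Calls of members are not listed for that fit, although its values enter the tally above. Fitting the 6 control libraries alone gave 3 higher and 1 lower with age. DESeq2 gave 1 lower at 10 weeks. An adjusted p under 0.1 gave 2 lower at 10 weeks and 1 lower for the difference.

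Leaving out 1 library at a time gave 0 to 3 members higher at 2 weeks, 0 to 7 higher and 0 to 3 lower at 10 weeks, 11 to 14 higher and 2 to 6 lower with age in IUGR islets, 5 to 9 higher and 1 to 4 lower in control islets, and 0 to 3 higher and 0 to 2 lower for the difference. Over all transcripts, 804 were called at 2 weeks, against 3212 by DESeq2 and 0 with the acinar covariate. With a replicate block, 4 members were higher at 10 weeks (Cacna1d and Cacna2d1 were not), 6 higher and 2 lower with age in control islets, and the other counts were those reported. Replicate numbers did not pair the libraries: the correlations of same-numbered libraries ran from -0.14 to 0.48, 5 of 12 exceeded 0.1, and 10 of 24 libraries correlated best with their own number. Members with few counts, such as Cacng4 and Cacna1f, are limited by depth.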

Other observations

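Several members lie side by side in the rat genome, by gene order in the RefSeq table of the GRCr8 build, in which all 37 members were found. Scn1a, Scn9a and Scn7a follow each other with 0 protein-coding genes between neighbours, as do Cacng1, Cacng4 and Cacng5, and Cacng6, Cacng8 and Cacng7. Scn2b adjoins Scn4b. Scn1a and Scn7a did not share a direction with age in IUGR islets, where Scn1a rose and Scn7a fell. Scn2b rose, and Scn4b, next to it, passed no test there. Of the Cacng6 trio, Cacng6 alone was counted deeply enough to test.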
